A study of Mus musculus with 13 samples.

Results

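The 7 genes of the mouse CDK inhibitors, Cdkn1a, Cdkn1b, Cdkn1c, Cdkn2a, Cdkn2b, Cdkn2c, and Cdkn2d, were described across the chromatin maps of the oligodendrocyte lineage. They were chosen by family, as all genes of the Cip/Kip and INK4 groups, and are 7 of the 21938 protein-coding genes on the chromosomes of the GENCODE M21 annotation. ChIP-Seq of H3K4me3 (K4), the mark of active or poised promoters, and of H3K27me3 (K27), the mark left by Polycomb, had been performed in neural stem cells (NSCs), oligodendrocyte precursor cells (OPCs), and newly formed oligodendrocytes (NFOs), and ChIP-Seq of the transcription factor OLIG2 was analysed in OPCs and NFOs. For each gene, listed histone peaks within 2 kb of any annotated transcription start site (TSS) or inside the gene were collected, and OLIG2 peaks inside the gene or within 20 kb of it (mm10). The series had 13 samples, of which 8 were these ChIP libraries, 3 were input libraries not analysed here as peaks, and 2 were RNA immunoprecipitation (RIP-Seq) libraries.

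All cells were labelled untreated, and no engineered allele is named in the labels. NSCs were bought as cells of CD-1 mouse cortices at E14.5 and expanded in culture with EGF and FGF, although the strain label of every sample reads C57BL/6. OPCs and NFOs were taken by immunopanning of C57BL/6 brains at postnatal day 7, OPCs on an antibody to PDGFRα and NFOs on an antibody to GalC, after microglia and endothelial cells had been depleted. The OPC and NFO stages were thus acutely isolated and the NSC stage was cultured, so that stage, source, and strain cannot be told apart between NSCs and the other stages. The 6 histone libraries carried antibody labels that name the other mark than the titles, and the titles, which the peak names in the lists follow, were used. In the lists titled K4, 46.0 to 74.1% of the peaks lay within 1 kb of an annotated TSS, against 9.71 to 21.5% in the lists titled K27. There was 1 library per stage and mark, so no difference between stages could be tested, and every value below describes 1 library.

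CDK inhibitors hold back cell division by blocking the cyclin-dependent kinases that drive a cell from G1 into S phase. The INK4 proteins p16INK4a (Cdkn2a), p15INK4b (Cdkn2b), p18INK4c (Cdkn2c), and p19INK4d (Cdkn2d) bind CDK4 and CDK6, and the Cip/Kip proteins p21 (Cdkn1a), p27 (Cdkn1b), and p57 (Cdkn1c) bind whole cyclin-CDK complexes. Cdkn2a has a further promoter that makes p19ARF, an activator of p53, and the Cdkn2a and Cdkn2b locus is a classical target of Polycomb repression. In the oligodendrocyte lineage p27 and p57 are known for their part in cell cycle exit before differentiation.

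The sequences that the results turn on are shown first, as read from the mouse genome (mm10). Both start regions of Cdkn2a are shown because they carried different marks, and that of Cdkn1b because it lay under the widest K4 peak of the family. Each is the 250 bases upstream of the RefSeq start (GRCm38.p6), on the strand of the gene, with CpG dinucleotides in capitals. The p19ARF start region of Cdkn2a lies at chr4:89294620-89294869 (minus strand), the p16INK4a start region at chr4:89282193-89282442 (minus strand), and the Cdkn1b start region at chr6:134920151-134920400 (plus strand).
Cdkn2a p19ARF: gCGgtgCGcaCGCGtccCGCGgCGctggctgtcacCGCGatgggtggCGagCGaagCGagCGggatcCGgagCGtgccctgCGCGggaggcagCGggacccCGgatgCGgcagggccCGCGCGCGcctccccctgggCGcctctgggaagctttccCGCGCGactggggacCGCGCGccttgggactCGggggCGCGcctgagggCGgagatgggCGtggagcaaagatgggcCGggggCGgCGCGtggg
Cdkn2a p16INK4a: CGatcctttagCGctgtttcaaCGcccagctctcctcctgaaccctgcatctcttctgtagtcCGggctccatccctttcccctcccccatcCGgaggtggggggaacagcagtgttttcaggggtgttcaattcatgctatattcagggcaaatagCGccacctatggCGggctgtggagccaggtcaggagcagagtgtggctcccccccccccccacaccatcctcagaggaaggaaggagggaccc
Cdkn1b: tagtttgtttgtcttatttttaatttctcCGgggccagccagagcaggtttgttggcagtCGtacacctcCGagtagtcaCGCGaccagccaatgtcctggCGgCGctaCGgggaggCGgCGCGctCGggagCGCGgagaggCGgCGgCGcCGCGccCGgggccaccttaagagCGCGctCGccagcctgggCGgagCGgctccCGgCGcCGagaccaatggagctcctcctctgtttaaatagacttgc
In the 300-base RefSeq promoter windows, which add the first 50 transcribed bases, the p19ARF window had 45 CpGs and 77.0% GC, the p16INK4a window 12 CpGs and 60.3% GC, and the Cdkn1b window 30 CpGs and 62.0% GC. The p19ARF count was above that of 97.5% of the 21263 promoter windows of protein-coding genes, whose median was 13, and the p16INK4a count was above that of 47.2%. The table matched 9 windows of 6 genes, and between them the number of CpGs ran from 2 at the outer start of Cdkn1a to 45 at p19ARF. The other start of Cdkn1a had 23 CpGs, Cdkn2b had 18, Cdkn2d had 22, and the 2 windows of Cdkn2c had 33 and 8. No promoter sequence of Cdkn1c was used.

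The window shown next, chr4:89311322-89311542 (plus strand, 221 bases), lies 283 bases upstream of the Cdkn2b TSS and lay inside listed peaks of both marks in OPCs and in NFOs. CpGs are in capitals.
Cdkn2b upstream window: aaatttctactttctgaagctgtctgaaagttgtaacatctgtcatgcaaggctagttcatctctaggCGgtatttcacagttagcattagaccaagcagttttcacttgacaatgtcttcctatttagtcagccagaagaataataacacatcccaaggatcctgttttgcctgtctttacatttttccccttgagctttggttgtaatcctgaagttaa
It held 1 CpG at 38.5% GC, and 4.52% of its bases were masked as repeats.

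The OLIG2 peaks of NFOs near members that passed the filter of the study are shown because they were the only ones that did, with each E-box, the CANNTG core bound by basic helix-loop-helix factors such as OLIG2, in capitals. All are on the plus strand and 236 bases long. They lie at chr6:134911365-134911600 upstream of Cdkn1b, at chr4:89302340-89302575 between Cdkn2a and Cdkn2b, and at chr4:109682885-109683120 in an intron of Faf1 upstream of Cdkn2c.
Cdkn1b upstream peak: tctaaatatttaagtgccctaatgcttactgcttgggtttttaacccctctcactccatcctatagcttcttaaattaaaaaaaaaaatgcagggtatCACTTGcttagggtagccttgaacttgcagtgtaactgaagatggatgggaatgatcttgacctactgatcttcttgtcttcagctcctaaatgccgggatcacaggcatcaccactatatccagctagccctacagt
Cdkn2a and Cdkn2b intergenic peak: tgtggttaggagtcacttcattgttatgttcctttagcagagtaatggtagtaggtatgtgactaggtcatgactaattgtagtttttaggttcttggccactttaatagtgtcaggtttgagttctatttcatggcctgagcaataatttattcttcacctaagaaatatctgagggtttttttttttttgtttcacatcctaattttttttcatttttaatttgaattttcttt
Cdkn2c upstream peak: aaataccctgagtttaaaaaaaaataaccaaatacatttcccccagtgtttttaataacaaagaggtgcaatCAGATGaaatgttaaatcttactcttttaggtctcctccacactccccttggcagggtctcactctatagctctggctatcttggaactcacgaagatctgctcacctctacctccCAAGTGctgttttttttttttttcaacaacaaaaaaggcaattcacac
The peak near Cdkn1b held 1 E-box, CACTTG, the peak near Cdkn2c held 2, CAGATG and CAAGTG, and the intergenic peak held 0. Bases masked as repeats made up 25.4% of the Cdkn1b peak, 56.8% of the Cdkn2c peak, and 53.4% of the intergenic peak. The masked share over all NFO peaks was not counted. Among the 15667 NFO peaks of this width, 69.4% held at least 1 CANNTG, which reads the same on both strands. None of the 3 held CAGCTG, which was in 10.2% of those peaks, and 1 held CAGATG or its reverse complement CATCTG, which was in 17.5%. A match is a description of the letters and not a bound site.

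The K4 lists of NSCs, OPCs, and NFOs held 33292, 18284, and 21736 peaks, and the K27 lists held 36069, 29417, and 12688. Sequencing depth is not given in the lists and is unknown here. The median width of a K4 peak was 553 bp, 987 bp, and 256 bp in the 3 stages, and 61.3% of the NFO K4 peaks were narrower than 350 bp, against 21.4% in OPCs. By the peak names in the lists, NSC reads were single-end and OPC and NFO reads paired-end, so widths in NSCs and in the other stages are not on one scale. A K4 peak was listed within 2 kb of a TSS at 5 of 5 NSC markers in NSCs and 5 of 5 OPC markers in OPCs. In NFOs it was listed at 2 of 8 markers of their own stage, Cnp and Ugt8a, and Mbp, Mog, Mobp, Mag, and Enpp6 were among those without one. The NFO list had K4 peaks at 4 of 5 OPC markers, 3 of 4 neuronal markers, 1 of 4 astrocyte markers, 0 of 4 microglial markers, and 1 of 3 endothelial markers (Flt1), and the OPC list had them at 4 of 4 neuronal, 1 of 4 astrocyte, 1 of 4 microglial (Csf1r), and 1 of 3 endothelial markers. The NSC list had K4 peaks at 5 of 5 OPC, 3 of 8 NFO, and 4 of 4 neuronal markers. It also had them at 2 of 4 astrocyte, 0 of 4 microglial, and 1 of 3 endothelial markers. The OPC list had K4 peaks at 5 of 5 NSC and 3 of 8 NFO markers, and the NFO list at 3 of 5 NSC markers. K4 at these markers thus did not separate the stages. The part of these lists and of other cells in the results below was not tested. In such bulk lists a mark on fewer cells and less of the mark per cell cannot be told apart.

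K4 was listed at all 7 members in NSCs and in OPCs and at 5 of 7 in NFOs. Of all protein-coding genes, 67.1%, 62.5%, and 47.9% had a K4 peak by the same rule in the 3 stages. A group of 5 members, the 4 INK4 genes and Cdkn1b, had K4 in all 3 stages, as had 44.7% of protein-coding genes. The Cip/Kip genes Cdkn1a and Cdkn1c had it in NSCs and OPCs only, a pattern of 16.4% of protein-coding genes. A K4 peak covered an annotated TSS of all 7 members in NSCs (59.8% of protein-coding genes), of 5 in OPCs (53.5%), and of 2, Cdkn1b and Cdkn2c, in NFOs (18.4%). The share of the window, the gene plus 2 kb around each TSS, under K4 had a median over members of 38.8%, 13.3%, and 5.11% in the order NSC, OPC, NFO, against 3.31%, 1.60%, and 0% over protein-coding genes. The members are short, with a median length of 5113 bp against 17425 bp, and the window share of a short gene weighs its promoter more.

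**Figure D1:**
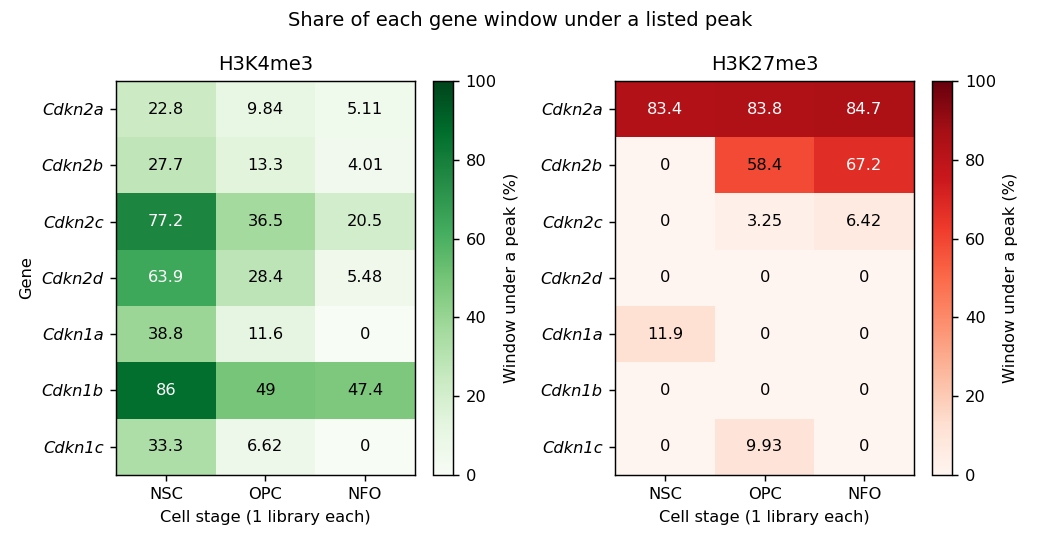
Share of the window of each gene (the gene plus 2 kb around every TSS, in percent) under listed H3K4me3 peaks (left) and H3K27me3 peaks (right), for 7 genes in 3 stages with 1 library each. The H3K4me3 share was lower in NFOs than in NSCs at every gene, in lists whose peak widths are not on one scale. How many protein-coding genes had this order was not counted. Only Cdkn2a and Cdkn2b had more than 50% of the window under H3K27me3.

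The number of bases under K4 was lower in NFOs than in OPCs at all 7 members, as at 12866 protein-coding genes (58.6% of all). A gene can be lower in NFOs only if it had a K4 peak in OPCs. All 7 members had one, as had 13714 protein-coding genes, so that 7 of 7 is near the background of such genes. The extent of the lower K4 differed between members. For Cdkn1b it was 3485 bp in OPCs and 3375 bp in NFOs, while for Cdkn2d it was 1418 bp and 274 bp, and for Cdkn1a 1358 bp and 0 bp. The narrower peaks of the whole NFO list stand beside this order.

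K27 was listed at 2 members in NSCs (33.7% of protein-coding genes), at 4 in OPCs (24.7%), and at 3 in NFOs (13.2%). The K27 genes of NSCs were Cdkn1a and Cdkn2a, those of OPCs were Cdkn1c, Cdkn2a, Cdkn2b, and Cdkn2c, and those of NFOs were Cdkn2a, Cdkn2b, and Cdkn2c. Cdkn2b and Cdkn2c had K27 at the later stages and none in NSCs, a pattern of 3.11% of protein-coding genes. A K27 peak lay over an annotated TSS of Cdkn1a and Cdkn2a in NSCs (3.30% of protein-coding genes) and of Cdkn2a alone in OPCs (3.86%) and NFOs (2.74%). Cdkn1b and Cdkn2d had no K27 peak in any of the 3 stages. The count in NSCs was near the background, and 7 genes are too few to read the higher counts of the later stages as a difference from it.

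Bivalent genes, taken here as genes with K4 and K27 peaks that overlap by at least 1 bp, were Cdkn1a and Cdkn2a in NSCs, Cdkn2a and Cdkn2b in OPCs, and Cdkn2a, Cdkn2b, and Cdkn2c in NFOs. The background was 14.8%, 6.40%, and 3.79% of protein-coding genes. Whether both marks lay on the same alleles or in different cells cannot be told apart.

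**Figure D2:**
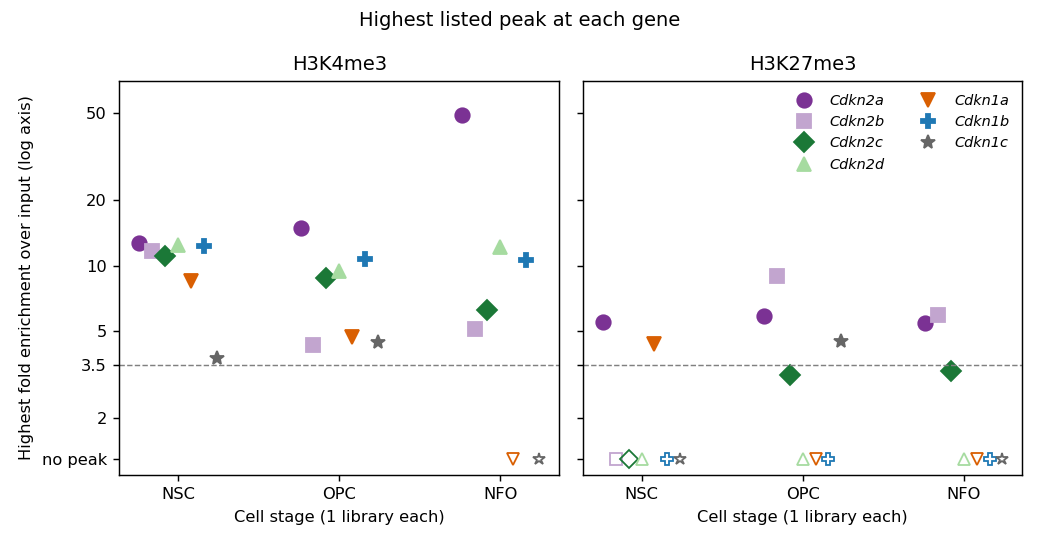
Highest fold enrichment over input of any listed peak at each of 7 genes (log axis), for H3K4me3 (left) and H3K27me3 (right) in 3 stages with 1 library each, with open symbols at the bottom for genes without a peak and a dashed line at the histone filter of 3.5. The H3K4me3 peak of Cdkn2a in NFOs, 337 bp wide, stood highest at 49.1-fold, and H3K27me3 stayed below 10-fold at every gene. Folds of peaks of unlike width need not be on one scale between lists.

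Cdkn2a (chr4:89274471-89294653, minus strand) was the member with the widest K27 domain. Its window was 83.4% under K27 in NSCs, 83.8% in OPCs, and 84.7% in NFOs, values that differed by little between the libraries. In NSCs the domain was listed as peaks of 18415 bp (chr4:89266987-89285401, 4.61-fold) and 7579 bp (chr4:89286679-89294257, 5.50-fold). In OPCs it was a single peak of 23311 bp (chr4:89269746-89293056, 5.87-fold), the 19th widest of 29417. In NFOs it was a peak of 21445 bp (chr4:89270584-89292028, 5.46-fold), the 16th widest of 12688, with a weaker one of 1235 bp (3.28-fold, FDR 0.0963) that failed the study's filter of FDR below 0.05 and fold enrichment above 3.5. The domain covered 100% of the 4001 bp around the p16INK4a TSS in every stage and reached over the TSS of the neighbouring long noncoding gene Gm12606. It did not cover the p19ARF TSS in any stage.

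K4 lay on the other side of that boundary. At the p19ARF start, the K4 peak measured 2823 bp in NSCs (chr4:89293734-89296556, 12.7-fold), 1399 bp in OPCs (chr4:89294424-89295822, 14.8-fold), and 337 bp in NFOs (chr4:89295034-89295370, 49.1-fold). The NFO peak ranked 3rd by fold enrichment among 21736 and did not cover the TSS, from which it lay 381 bp upstream, beyond the p19ARF sequence printed above. Its 337 bases were 69.7% GC with 43 CpGs. At the p16INK4a TSS a K4 peak of 776 bp was listed in NSCs (chr4:89281839-89282614, 3.51-fold, FDR 0.00967), inside the K27 domain, and none was listed there in OPCs or NFOs. A further K4 peak inside the domain, between the start sites, was listed in all 3 stages with 7.38-fold enrichment in NSCs (627 bp), 4.58-fold in OPCs (783 bp), and 3.77-fold in NFOs (796 bp), the last 2 ending at the same base, 89287808. The overlap that made Cdkn2a bivalent in OPCs and NFOs was this peak, whereas in NSCs all 5 K4 peaks overlapped K27, by 524 bp just inside the p19ARF start and by 776 bp at the p16INK4a start.

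Cdkn2b (chr4:89306299-89311039, minus strand), the neighbour whose product p15INK4b acts downstream of TGF-β, had no K27 peak in NSCs and was largely under K27 in OPCs and NFOs. The window share under K27 was 0%, 58.4%, and 67.2% in the 3 stages, and the share under K4 was 27.7%, 13.3%, and 4.01%. The K27 values in OPCs and NFOs were above those of 99.0% and 99.3% of protein-coding genes. In OPCs K27 peaks of 5310 bp (chr4:89301651-89306960, 5.46-fold) and 2708 bp (chr4:89307667-89310374, 6.28-fold) lay over the gene and beyond its end. In NFOs 1 peak of 4940 bp (chr4:89305428-89310367, 5.17-fold) lay there, and both domains stopped short of the TSS, by 665 bp and 672 bp.

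At the Cdkn2b TSS itself the NSC library had a K4 peak of 1864 bp (chr4:89309779-89311642, 11.7-fold) and the OPC library one of 897 bp (chr4:89310646-89311542, 4.34-fold). The NFO library had only a K4 peak of 270 bp (5.14-fold, FDR 1.2e-14) that lay 234 bp upstream of the TSS. A narrow K27 peak lay at the same place in OPCs (290 bp, 8.93-fold) and in NFOs (221 bp, 5.91-fold), and the OPC and NFO peaks of both marks ended within 1 bp of each other, at 89311542 or 89311543. This is the window printed above, and the bivalent call of Cdkn2b rested on it alone. K4 peaks of any width that overlapped a K27 peak narrower than 350 bp made up 3.53% of the 18284 in OPCs and 1.84% of the 21736 in NFOs, and 2.61% of the 13333 NFO K4 peaks that were themselves this narrow. With peaks of at least 350 bp alone, an alternative chosen after seeing the data, Cdkn2b was not bivalent in either stage.

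Between the genes, a stretch of 11645 bp, K27 covered 0% in NSCs, 46.9% in OPCs, and 34.9% in NFOs. From the end of Cdkn2a to the Cdkn2b TSS, 36569 bp, it covered 50.6%, 75.0%, and 73.6%, while K4 covered 17.3%, 7.04%, and 3.10%. The NSC domain thus ended within Cdkn2a, and the OPC and NFO lists had K27 on both genes with a gap around the p19ARF start.

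**Figure D3:**
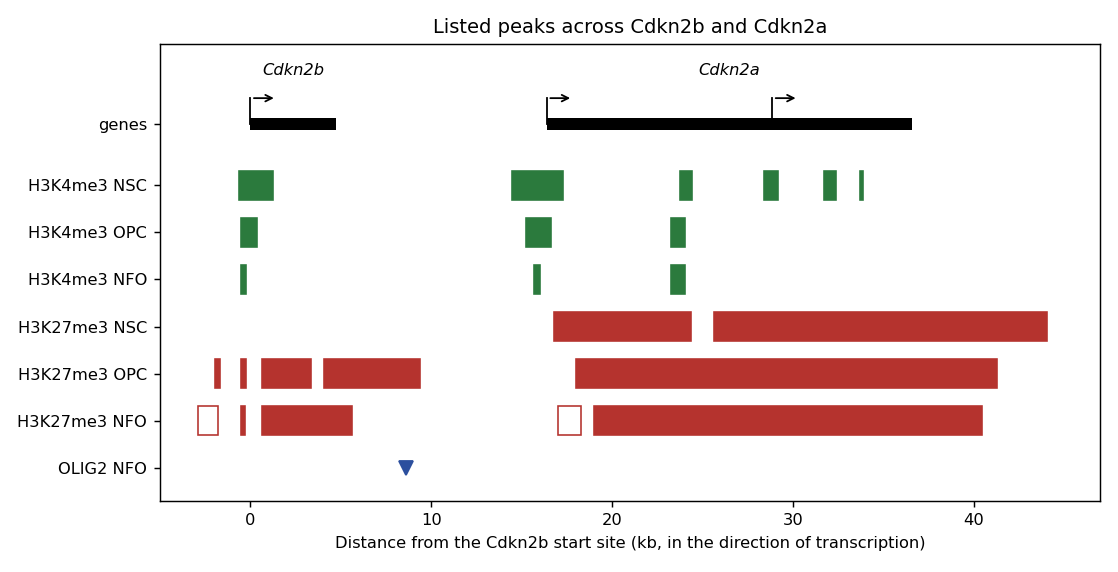
Listed H3K4me3 peaks (green), H3K27me3 peaks (red), and the NFO OLIG2 peak (blue triangle) across Cdkn2b and Cdkn2a, by distance from the Cdkn2b start site in kb along the direction of transcription, with 1 library per row, arrows at start sites, and open bars for peaks that failed the study's filter. Histone peaks within 2 kb of a TSS or inside either gene are drawn. Those that lay only between the genes are not drawn, among them the NFO H3K27me3 peak that the OLIG2 peak overlapped. H3K27me3 lay on Cdkn2a in all 3 stages and on Cdkn2b in OPCs and NFOs. H3K4me3 at the outer start of each gene was narrower from NSCs to NFOs, in lists whose widths are not on one scale.

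Cdkn2c (chr4:109660876-109667189, minus strand), on the same chromosome but outside that locus, was mainly a K4 gene. Its K4 peak measured 5971 bp in NSCs (chr4:109662360-109668330, 11.0-fold), 3038 bp in OPCs (chr4:109664354-109667391, 8.73-fold), and 1704 bp in NFOs (chr4:109664968-109666671, 6.23-fold). The NSC and OPC peaks covered both of its start sites and the NFO peak covered the inner one only. The NSC list held a further peak of 446 bp at the end of the gene (3.84-fold). K27 at Cdkn2c was weak, with a peak of 270 bp in OPCs (3.14-fold, FDR 0.0705) and one of 534 bp in NFOs (3.28-fold, FDR 0.0968), and both failed the study's filter. The overlap of 99 bp between K4 and K27 in NFOs rested on the latter.

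Cdkn2d (chr9:21288410-21291407, minus strand), which encodes p19INK4d, was under K4 alone. At its start sites K4 peaks measured 3097 bp in NSCs (chr9:21289661-21292757, 12.4-fold) and 1418 bp in OPCs (chr9:21290497-21291914, 9.40-fold), and each covered all 3 start sites. In NFOs the peak measured 274 bp (chr9:21290497-21290770, 12.1-fold) and lay 383 bp inside the gene from the nearest start site. The OPC and NFO peaks began at the same base. The listed fold was thus of similar size in the 3 lists, while the share of the window under K4 was not, at 63.9%, 28.4%, and 5.48%. Folds of peaks so unlike in width, from lists of different read types, need not be on one scale. A second NSC peak (1557 bp, 8.34-fold) lay over the TSS of the neighbouring gene Kri1 and touched the end of Cdkn2d.

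Among the Cip/Kip genes, Cdkn1b (chr6:134920401-134925513, plus strand), the gene of p27, had the broadest K4. In NSCs a K4 peak of 11633 bp (chr6:134919395-134931027, 12.3-fold) spanned the whole gene and was the 18th widest of 33292. It also covered start sites of the long noncoding genes Lockd and Gm44238, so its width is not of Cdkn1b alone. In OPCs the peak measured 3485 bp (chr6:134919865-134923349, 10.7-fold) and in NFOs 3168 bp (chr6:134920356-134923523, 10.6-fold), the 57th widest of 21736. Both covered the 2 start sites, and the NFO list held a further peak of 207 bp (7.81-fold) near the end of the gene. Cdkn1b was the member with the largest K4 share in every stage, at 86.0%, 49.0%, and 47.4% of the window, above 99.7%, 99.1%, and 99.8% of protein-coding genes, and no K27 peak was listed at it.

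Cdkn1a (chr17:29090976-29100727, plus strand), the p53 target that encodes p21, carried K4 at its inner start sites. The K4 peak measured 4563 bp in NSCs (chr17:29093358-29097920, 8.48-fold) and covered 3 of the 5 start sites, and 1358 bp in OPCs (chr17:29094542-29095899, 4.69-fold), where it covered none. No K4 peak was listed in NFOs. K27 was listed in NSCs alone, as a peak of 344 bp (chr17:29090286-29090629, 4.35-fold, FDR 1.3e-05) 347 bp upstream of the outer, CpG-poor start site, and as one of 1051 bp (3.20-fold) that overlapped K4 by 996 bp and failed the study's filter. Without the latter, Cdkn1a was not bivalent.

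Cdkn1c (chr7:143458339-143461050, minus strand), the imprinted gene of p57, had the lowest K4 enrichment of the family in NSCs. Its NSC peaks measured 970 bp (chr7:143460643-143461612, 3.76-fold) at the outer start sites and 940 bp (chr7:143458979-143459918, 3.68-fold) inside the gene. The OPC peak measured 380 bp (chr7:143459636-143460015, 4.45-fold) and covered a TSS of Gm44732, a noncoding gene, but none of Cdkn1c, and no peak was listed in NFOs. K27 was listed in OPCs alone, at the end of the gene (chr7:143458296-143458748, 453 bp, 4.52-fold) and 1884 bp upstream of it (459 bp, 3.36-fold, which failed the filter). Neither lay on a K4 peak.

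**Figure D4:**
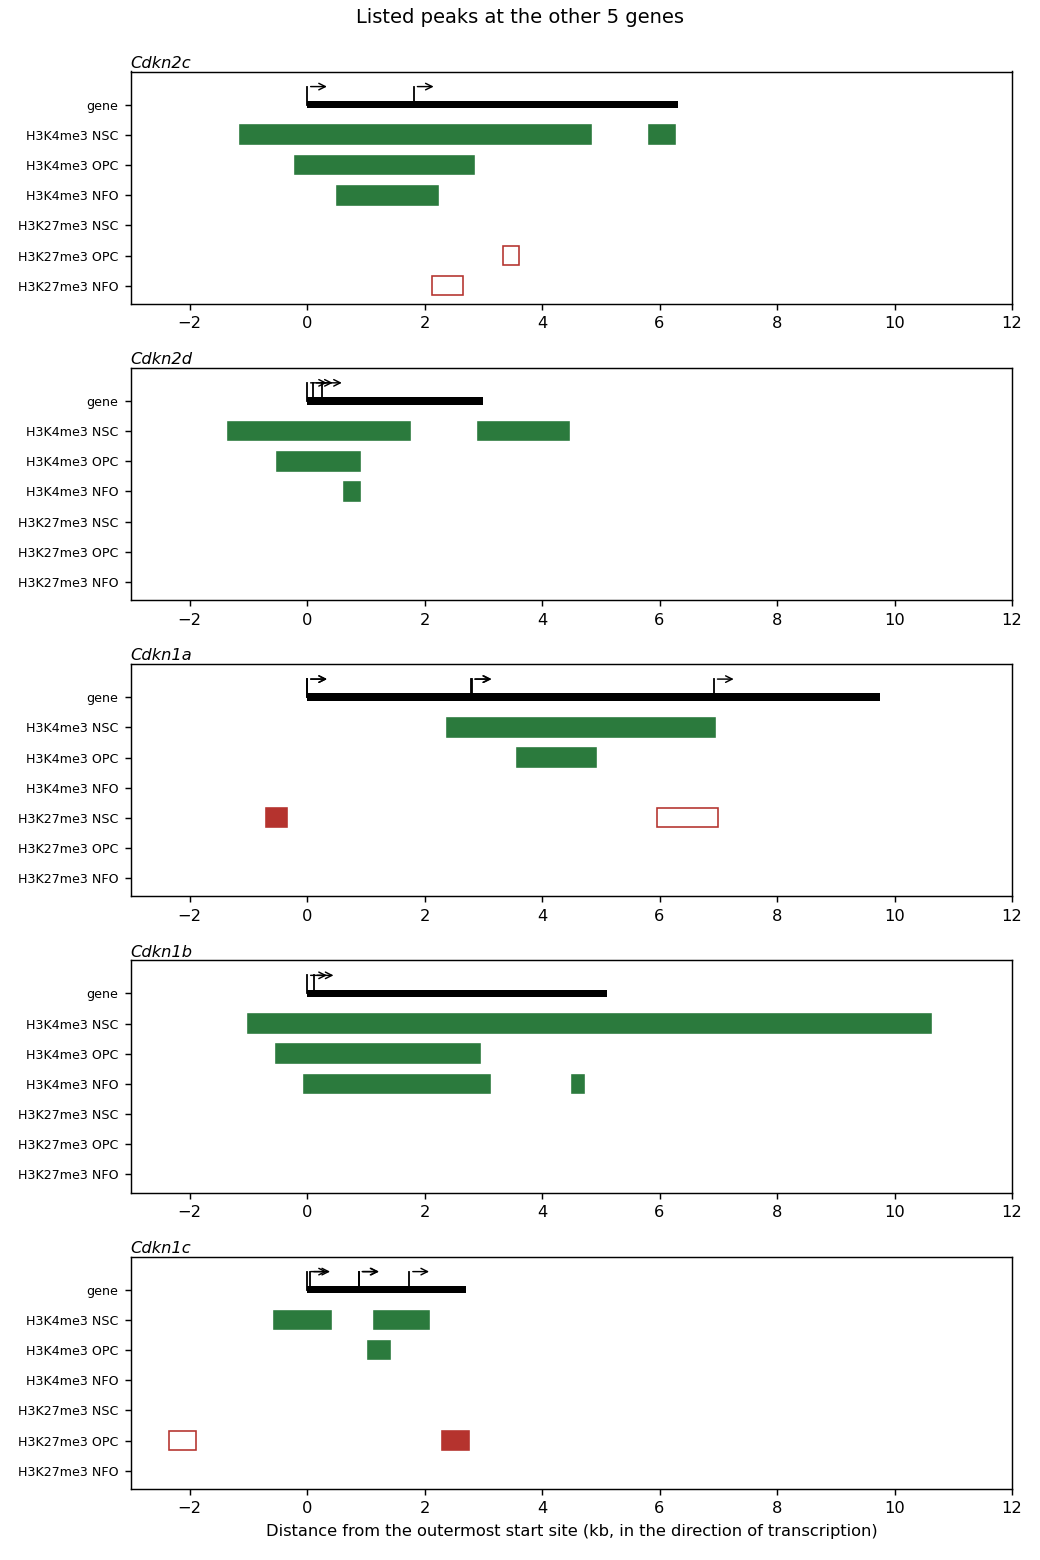
Listed H3K4me3 (green) and H3K27me3 (red) peaks at Cdkn2c, Cdkn2d, Cdkn1a, Cdkn1b, and Cdkn1c by distance from the outermost start site in kb along the direction of transcription, with 1 library per row, arrows at start sites, and open bars for peaks that failed the study's filter. H3K4me3 at Cdkn1b spanned the whole gene in NSCs, and no H3K4me3 was listed at Cdkn1a or Cdkn1c in NFOs.

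OLIG2, a factor needed for the oligodendrocyte fate, had no listed peak within 20 kb of any member in OPCs, where 27.9% of protein-coding genes had one. In NFOs 6 of 7 members, all but Cdkn1a, had a peak within 20 kb, as had 46.5% of protein-coding genes, and a peak in NFOs with none in OPCs was found at 6 members and at 27.9% of protein-coding genes. The OPC list held 7384 OLIG2 peaks and the NFO list 16911, and the low numbers in OPCs stand beside this difference. The 6 members shared 5 peaks, since 1 lay between Cdkn2a and Cdkn2b, and no peak lay inside a member.

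With the study's filter for OLIG2 (FDR below 0.05 and fold enrichment above 5), 3 peaks at 4 members were left, those printed above. The share of protein-coding genes with a peak under this filter was not counted, so this count of members has no background here. The peak upstream of Cdkn1b was enriched 7.90-fold (FDR 0.00280) at 8801 bp from the TSS, and Cdkn1b was its nearest gene. The peak between Cdkn2a and Cdkn2b was enriched 6.76-fold (FDR 0.00535), 7687 bp upstream of the outer Cdkn2a TSS and 3723 bp past the end of Cdkn2b, and it overlapped the K27 peaks of OPCs and NFOs there. The peak nearest to Cdkn2c was enriched 5.45-fold (FDR 0.0156) at 15696 bp from the TSS, but the TSS of Faf1 was nearer, at 5888 bp. All 3 stood in the lower part of their list, at ranks 8817, 10987, and 13368 of 16911 by fold enrichment. The peaks within 20 kb of Cdkn1c (3.32-fold, FDR 0.139, in an intron of Slc22a18) and Cdkn2d (3.47-fold, FDR 0.116, in an intron of Kri1) failed the filter.

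Within 50 kb, 4 OLIG2 peaks were listed in OPCs, near Cdkn1c, Cdkn2a, and Cdkn2c, and 19 in NFOs. The shares of protein-coding genes at this distance were not counted. The NFO list was also the longer, with 16911 peaks against 7384 in OPCs. Of the OPC peaks, 2 overlapped an NFO peak, at chr7:143505570-143505799, 2420 bp from the TSS of Phlda2, and at chr4:89237404-89237633 in an intron of Gm12606. The strongest NFO peak in this range was at chr17:29056680-29056915 (20.3-fold), 34061 bp upstream of Cdkn1a, over a TSS of the gene AC167363.1. The NFO peak nearest to Cdkn1a was 24058 bp past its end, in an intron of Rab44 (8.33-fold). Cdkn2d had the most NFO peaks in this range, of which those of 11.0- to 13.3-fold lay on its upstream side, nearest to Slc44a2 or Gm39302.

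**Figure D5:**
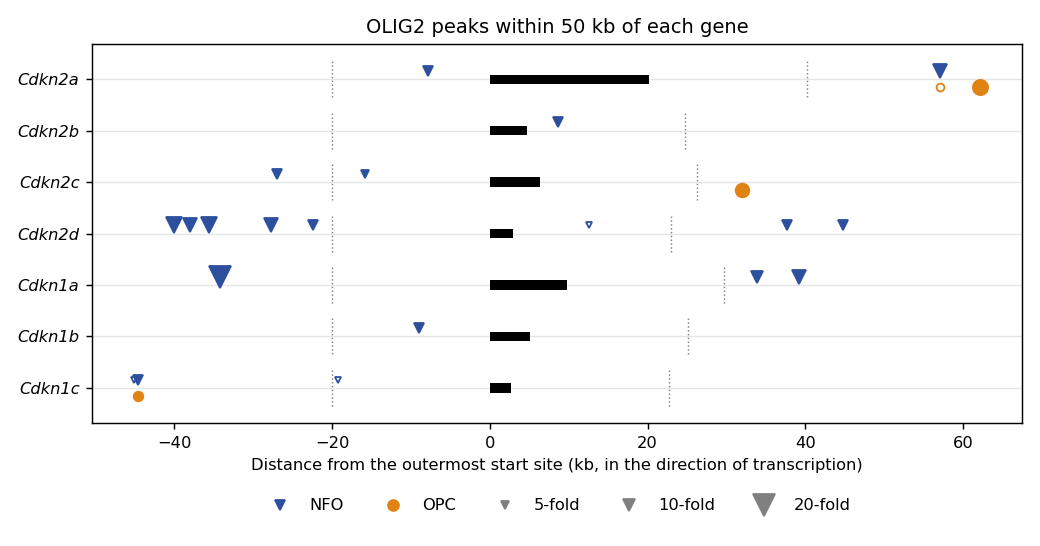
OLIG2 peaks within 50 kb of each of the 7 genes in NFOs (triangles) and OPCs (circles), by distance from the outermost start site in kb along the direction of transcription, with symbol size by fold enrichment, open symbols for peaks that failed the study's filter, black bars for genes, and dotted lines 20 kb beyond each gene. No OPC peak lay within the dotted lines, and the NFO peaks within them were enriched less than 10-fold.

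In the RIP-Seq lists no site fell in the 21 annotated transcripts of the members, or within their genes, with the OLIG2 antibody (101310 sites in 1961 transcripts) or with the IgG control (83195 sites in 1971 transcripts). Of the 141767 annotated transcripts, 1.38% and 1.39% held a site, so that none among 21 is near the background. The titles of the RIP libraries name NFOs and the methods of the study name NSCs. The lists hold sites of at least 4 tags, so that a site with fewer could not have been seen.

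The partners of the CDK inhibitors were counted by the same rule in a list of 31 genes: cyclins, kinases, pocket proteins, E2F factors, factors that degrade the inhibitors, the p53 arm, and regulators of the INK4 locus. K4 was listed at 31, 31, and 25 of them in the order NSC, OPC, NFO (100%, 100%, and 80.6%, against 67.1%, 62.5%, and 47.9% of protein-coding genes), and K27 at 8, 6, and 6. The numbers of bivalent genes were 4, 2, and 2 (12.9%, 6.45%, and 6.45%, against 14.8%, 6.40%, and 3.79%). Thus 25.8%, 19.4%, and 19.4% of the list had K27 in the 3 stages, against 33.7%, 24.7%, and 13.2% of protein-coding genes. OLIG2 peaks lay within 20 kb of 16 in OPCs (51.6%, against 27.9% of protein-coding genes) and of 18 in NFOs (58.1%, against 46.5%).

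K27 within 2 kb of a TSS in at least 1 stage was found at 8 of the 31 genes, at 5 of the 7 members, and at 25.5% of protein-coding genes. All listed peaks were counted. Among the members, those of Cdkn2c (3.14- and 3.28-fold) failed the study's filter, and Cdkn2a and Cdkn2b are neighbours. Ccnd2, the gene of cyclin D2, a partner of CDK4 and CDK6, had none in NSCs and a broad K27 peak in OPCs (5406 bp, 6.26-fold) and in NFOs (5174 bp, 4.75-fold), the same stages in which Cdkn2b had K27. E2f1, a factor that drives S phase genes, had a K27 peak of 2592 bp in OPCs (8.24-fold) and of 673 bp in NFOs (5.96-fold), and no K4 peak in NFOs. Bmi1, a Polycomb subunit known to repress the Cdkn2a locus, had K27 in OPCs and NFOs, with its highest fold enrichments at 6.57 and 3.67. Cbx7, another Polycomb subunit, and Cdk6 had listed K27 in all 3 stages, with 11.7-fold as the highest value, at Cbx7 in OPCs. The peaks of Cbx7 in NSCs (2.81-fold) and of Cdk6 in OPCs (3.41-fold) failed the study's filter. E2f4, Fbxw7, and Mdm4 had K27 in NSCs alone, at 2.73- to 3.56-fold, and the peaks of E2f4 (3.16-fold) and Fbxw7 (2.73-fold) failed the filter.

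An OLIG2 peak inside the gene in at least 1 stage was found at 14 of the 31, at 0 of the 7 members, and at 29.6% of protein-coding genes. A short gene has less room for a peak, and the median length was 5113 bp for members against 17425 bp for protein-coding genes. The part of gene length in these counts was not tested. Cdk6, the kinase that the INK4 proteins bind, had peaks in both stages, the strongest 11.5-fold in OPCs (chr5:3405292-3405521) and 16.6-fold in NFOs (chr5:3405357-3405592), which overlapped. Cbx7 had a peak of 20.0-fold in OPCs and of 11.1-fold in NFOs, and Rnf2 had one of 14.4-fold in NFOs. Kdm6b, which encodes a demethylase of K27, had one of 13.8-fold in OPCs. The others were Ccnd2, Ccnd3, Tfdp1, Fbxw7, and Mdm2 in NFOs, and Ccne2, Rbl1, Rbl2, E2f4, and Mdm4 in OPCs, between 4.25- and 8.89-fold at their highest.

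The pattern of presence over the 6 histone lists was shared by 4791 other genes for Cdkn1b and for Cdkn2d, by 1069 for Cdkn2a, by 536 for Cdkn1a, by 257 for Cdkn2b and for Cdkn2c, and by 252 for Cdkn1c. Within the same pattern, likeness was measured as the Euclidean distance over 6 values, the shares of the 2 kb windows around the TSSs under each list. Among the 3 nearest to Cdkn2a were Gbx1 at 0.256 and Slc18a3 at 0.272, and nearest to Cdkn2b were 1810062G17Rik at 0.182, Cavin1 at 0.187, and Tgif1 at 0.202. Nearest to Cdkn2c were Nanos1 at 0.164, Rgs9bp at 0.183, and Kcnj2 at 0.198. For Cdkn1a they were E2f4 at 0.027, Csf2ra at 0.068, and Armcx3 at 0.070, and for Cdkn1c they were Tcf15 at 0.064, 6030445D17Rik at 0.066, and Tk1 at 0.072.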

How the data were processed

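ChIP-Seq reads had been mapped by the authors to mm10 with Bowtie2, unique reads kept, and ENCODE blacklisted regions removed. Broad histone peaks were called with MACS2 and OLIG2 peaks with SPP, per library. The deposited peak lists give each peak a fold enrichment, a ratio over input, and a −log10 p-value or FDR. The deposited RIP-Seq lists (ASPeak) give a tag count per site, an RPKM per transcript, and a p-value, of which the tag count was used here. Versions of these tools are not given in the sources used here. The NSC OLIG2 peaks and the input libraries were not used here.

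All listed peaks were kept, and assigned to genes of GENCODE M21 (GRCm38) by at least 1 bp of overlap in Python 3.11.15 with pandas 2.3.3 and NumPy 2.4.6. Figures were drawn in Matplotlib 3.10.9. The assignment was tested on simulated data. Each group had 1 library, so no test was run. The main counts of members in each stage are set beside the percentage of 21938 protein-coding genes. Most counts under the alternatives named below have no such percentage. Lists are not corrected for depth, which is unknown, so that an absent peak may lie below the detection limit. Alternatives were the study's filter, stricter folds, other distances, 1 TSS per gene, and larger overlaps. Sequences were read from the RefSeq genome GRCm38.p6.

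All members were named, with the pathway genes that had K27 within 2 kb of a TSS or OLIG2 in the gene, the gene with the nearest TSS to each OLIG2 peak, the 3 genes nearest in pattern to each member with K27, and the markers listed against their cell type. Of these, 2 genes are not reported here. The members and lists were chosen with earlier results of these data known.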

Additional observations from a re-analysis of the deposited data

How the results depend on the processing

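Of 79 values recomputed under the alternatives, 55 stayed within 1.5 times the number reported and 24 did not. With 1 kb in place of 2 kb around the TSS, or an overlap of 200 bp, no value moved by more than that. With fold enrichment above 5, the members with K4 in OPCs numbered 4, those with K27 were 1 in NSCs and 2 in OPCs, and bivalent members were 1, 0, and 1 in NSCs, OPCs, and NFOs. With the study's filter, 1 member was bivalent in NSCs and 3 OLIG2 peaks were left in NFOs. With 1 TSS per gene, 1 member was bivalent in each stage, and with the gene body left out 1 was in OPCs. With peaks of at least 350 bp alone, chosen after seeing the data, 1 member was bivalent in OPCs and 3 had K4 in NFOs. For OLIG2 in NFOs, fold enrichment above 10 and peaks in the gene only left 0 members and 0 peaks, and 5 kb left 1 member and 1 peak, while 50 kb gave 19 peaks. In OPCs 50 kb gave 3 members and 4 peaks, of which 2 were shared with NFOs, a distance chosen for that overlap after seeing the data. No paired analysis was possible because each group has 1 sample. Peaks are described and not tested, and the listed widths depend on the read type and on the unknown depth of each library.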
